A study of Mus musculus with 10 samples.

Results

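Titin (Ttn) and 8 genes of RNA-binding proteins that control splicing in striated muscle (Rbm20, Rbm24, Rbfox1, Rbfox2, Mbnl1, Mbnl2, Celf1 and Celf2) were described in the left atrium around the pulmonary veins. These 9 genes were chosen by name, of 54532 genes in the deposited count table, and each name matched 1 row. RNA was sequenced from 10 mice, 4 controls (Ctrl, genotype R26creERT2/creERT2; Tbx5+/+) and 6 mice with a deletion of the T-box transcription factor gene Tbx5 (CKO, R26creERT2/creERT2 with both Tbx5 alleles floxed). All 10 mice thus carried 2 copies of a tamoxifen-inducible Cre recombinase at Rosa26, a locus active in most cell types, and all received tamoxifen over 3 days at an age of 6 weeks. Tissue was taken 1 week later, at 7 weeks of age, without the appendage and with 1 to 2 mm of vein left on it. It was sequenced in bulk, so fewer cells of a type and less RNA per cell cannot be told apart.

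Titin spans the sarcomere from the Z-disc to the M-band and acts as a molecular spring. Its spring lies in the I-band and consists of immunoglobulin domains, the N2B element, the N2A element and the PEVK segment, named for its proline, glutamate, valine and lysine residues. Splicing sets the length of that spring: the short N2B form skips the middle immunoglobulin and most PEVK exons, and the longer N2BA forms keep some of them. RBM20 is the main repressor of these exons in the heart, RBM24 promotes inclusion of muscle exons, RBFOX1 and RBFOX2 bind near muscle and neuronal exons, and the MBNL and CELF proteins act on many of the same transcripts during postnatal heart development.

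Ttn lies on chromosome 2 (GRCm38, 76703980 to 76982547, minus strand). Most of its coverage was assigned to ENSMUST00000011934, a transcript of 192 exons and 81843 bases with 5 PEVK-rich exons. The longest annotated transcript, ENSMUST00000099981, has 347 exons and 106824 bases with 79 PEVK-rich exons. An exon was called PEVK-rich where at least 60% of its full codons, with at least 15 of them, encode 1 of the 4 residues. The exons below are shown as examples of PEVK-rich exons with very different coverage. Their high share of these residues follows from that definition. They are numbered along the 347-exon transcript and written 5′ to 3′ on the minus strand from the GENCODE M21 transcripts, with codons for proline, glutamate, valine or lysine in capitals.
Exon 204, chr2:76816989-76817075: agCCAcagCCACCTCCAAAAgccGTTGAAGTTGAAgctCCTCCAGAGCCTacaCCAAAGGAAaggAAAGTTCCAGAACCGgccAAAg
Exon 113, chr2:76862800-76862859: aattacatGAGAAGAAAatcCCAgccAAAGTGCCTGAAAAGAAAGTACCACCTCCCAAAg
Exon 120, chr2:76857904-76857987: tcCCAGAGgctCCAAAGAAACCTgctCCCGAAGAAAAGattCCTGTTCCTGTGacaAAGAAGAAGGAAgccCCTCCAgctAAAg
Exon 150, chr2:76841768-76841836: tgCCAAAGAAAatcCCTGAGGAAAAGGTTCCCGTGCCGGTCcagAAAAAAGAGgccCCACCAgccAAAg
Exon 185, chr2:76828680-76828763: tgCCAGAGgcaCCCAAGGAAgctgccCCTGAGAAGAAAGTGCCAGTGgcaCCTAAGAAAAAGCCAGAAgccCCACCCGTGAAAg

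Of these 5 exons, exon 204 is in the main transcript and was covered at 0.767 to 0.975 times the median exon of the 347-exon transcript over the 10 libraries. Exons 113 and 120, which the main transcript lacks, were covered at 0.482 to 0.639 and at 0.426 to 0.578 times the median exon. Exon 150 was covered at 0.0537 to 0.117 times and exon 185 at no more than 0.000997 times the median exon. The ranges of exons 113 and 120 overlapped, while exon 204 was above both in all 10 libraries. Exon 150 was below both and above exon 185 in all 10 libraries. Reads from PEVK exons that resemble each other could be lost or split during alignment, which bears on the lowest of these values.

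Summed estimated counts per library ran from 8602794 to 10040808. Airway transcripts were abundant in Ctrl 3 and CKO 4, where a list of 6 airway markers summed to 1578 and 2348 CPM (counts scaled to a common library size by the trimmed mean of M values, TMM), against 0.42 to 85.4 in the other 8 libraries. Exon 3 of Tbx5 was covered at 0.903 to 1.7 times the median exon of the main Tbx5 transcript in Ctrl and at 0.175 to 0.618 times in CKO, so that no library went against its label, although this exon missed the limma threshold (adjusted p = 0.736). The ratio is relative to the other exons, and Tbx5 over all exons was at 134 ± 31.6 CPM in Ctrl (SD, n = 4) and 268 ± 105 CPM in CKO (SD, n = 6), without overlap (log2 fold change 1.00, SE 0.29, edgeR adjusted p = 0.101). Atrial cardiomyocyte markers summed to 40566 to 46601 CPM in Ctrl and 30477 to 45588 in CKO. Of the 9 genes of that list, Myl7, Sln and Myl4 were lower and Tnnt2 was higher in CKO.

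The first comparison asked whether the level of the 9 genes differed between CKO and Ctrl. None of the 9 passed the test, higher or lower, which was the quasi-likelihood F test of edgeR with Benjamini-Hochberg adjustment over 17752 genes and a threshold of 0.05. Of all tested genes 497 (2.8%) passed it, 1.54% higher and 1.26% lower in CKO. 1 of the 9, Rbfox1, had an unadjusted p under 0.05, and DESeq2 and limma voom also called 0 of the 9. No member had groups free of overlap, against 5.72% of all tested genes.

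Ttn, the giant sarcomeric spring protein, held 3.64% to 7.83% of all counts. Its level was 71662, 72177, 41952 and 72621 CPM in Ctrl 1 to 4, and in CKO it ran from 37625 through a median of 67975 to 81641 CPM. The lowest libraries were Ctrl 3 and CKO 5, 1 in each group, and the groups overlapped over nearly their whole range. The log2 fold change was -0.0019 (SE 0.24, edgeR adjusted p = 0.998). In these 2 libraries, Ctrl 3 first, smooth muscle markers summed to 1103 and 1017 CPM and macrophage markers to 1218 and 1348 CPM. In the other 8 libraries the smooth muscle list ran from 388 to 1141 CPM and the macrophage list from 543 to 1399 CPM, with CKO 4 highest in both. Fibroblast markers summed to 4126 CPM in Ctrl 3 and 6164 CPM in CKO 5, the highest of each group. Atrial cardiomyocyte markers summed to 40566 and 30477 CPM in these 2 libraries, the lowest of each group. The part of these cells in the low Ttn values was not tested.

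Rbm20, the repressor of titin spring exons, was at 286, 352, 194 and 339 CPM in Ctrl 1 to 4 and at 172 to 398 CPM (median 281) in CKO. It was lowest in the same libraries as Ttn, Ctrl 3 and CKO 5. The log2 fold change was -0.01 (SE 0.24, edgeR adjusted p = 0.984). Set against Ttn, there were 3.76 to 5.12 Rbm20 counts per 1000 Ttn counts in the 10 libraries, 4.54 ± 0.383 in Ctrl (SD, n = 4) and 4.48 ± 0.439 in CKO (SD, n = 6). That ratio varied 1.36-fold over libraries in which Rbm20 varied 2.31-fold.

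The pattern of Ttn over the 10 libraries was compared with that of 10427 tested genes with a mean of at least 10 CPM, by the mean absolute difference of centred log2(CPM + 0.5) values. Among the nearest to Ttn were Akap6, an anchoring protein of the muscle nuclear envelope, Rbm20, Usp20 and Klc2, with mean differences of 0.0929 to 0.0974 against a median of 0.362 over all genes. Among the nearest to Rbm20 were Nt5dc3, Ttn, Akap6 and the kinase gene Dyrk1a, with mean differences of 0.078 to 0.11. Ttn and Rbm20 thus each stood among the 3 genes nearest to the other. The other 7 members ranked between 379 and 6600 relative to Ttn. These distances are descriptions over 10 libraries that also share depth and cell makeup.

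Rbfox1, whose protein binds GCAUG elements beside muscle and neuronal exons, was at 20.2, 26, 14.1 and 22.1 CPM in Ctrl 1 to 4 and at 9.17 to 19.4 CPM (median 12.3) in CKO. All 6 CKO libraries were below 3 of the 4 Ctrl libraries, and Ctrl 3 lay within the CKO range. The log2 fold change was -0.67 (SE 0.24, edgeR adjusted p = 0.184), and it missed the threshold. It was the least abundant of the 9, with 82 to 238 estimated counts per library. Neuronal markers, 6 genes of which 3 were tested, summed to 20.4 to 93.6 CPM in Ctrl against 8.25 to 31.9 CPM in CKO. Dbh, the noradrenaline-making enzyme of sympathetic neurons, was lower in CKO (log2 fold change -2.001, SE 0.30, edgeR adjusted p = 0.0062). Skeletal muscle markers summed to 2.1 to 10.1 CPM in Ctrl, against 2.62 to 7.94 CPM in CKO; 2 of the 5 found were at 0 in every library. The part of nerve tissue in the Rbfox1 values was not tested.

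Mbnl1, the more studied of the muscleblind genes in muscle, was at 264, 348, 405 and 347 CPM in Ctrl 1 to 4 and at 377 to 427 CPM (median 408) in CKO. 3 of the 4 Ctrl libraries lay below every CKO library and Ctrl 3 lay within their range. The log2 fold change was 0.25 (SE 0.12, edgeR adjusted p = 0.306). Its paralog Mbnl2 was at 294 to 408 CPM in Ctrl and 295 to 358 CPM in CKO (log2 fold change -0.04, SE 0.11).

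The other 4 regulators overlapped between the groups over most of their ranges. Rbm24 was at 65.5 to 112 CPM in Ctrl and 55.5 to 129 CPM in CKO (log2 fold change -0.02, SE 0.24). Rbfox2, the more broadly expressed Rbfox paralog, was at 112 to 177 CPM in Ctrl and 124 to 186 CPM in CKO (log2 fold change -0.02, SE 0.15). Celf1 was at 114 to 168 CPM in Ctrl and 86.8 to 154 CPM in CKO (log2 fold change -0.16, SE 0.15). Celf2 was at 128 to 163 CPM in Ctrl and 125 to 165 CPM in CKO (log2 fold change 0.03, SE 0.10).

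**Figure D1:**
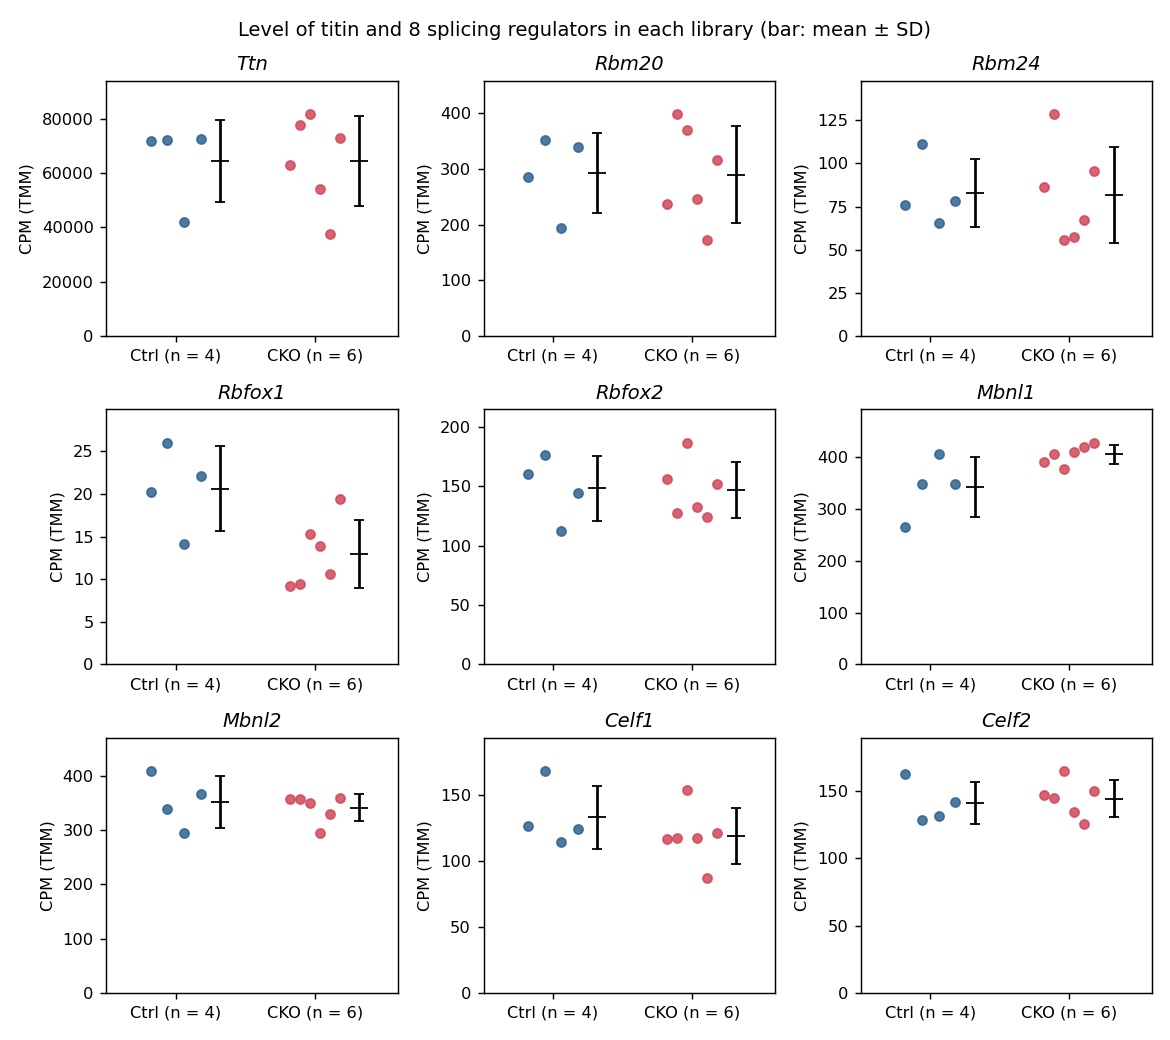
Level of each of the 9 genes in CPM (linear axes from 0), 1 point per library, with the mean and SD beside the points. The groups overlap in every panel, and the Ttn and Rbm20 panels each show 1 low library in either group, Ctrl 3 and CKO 5.

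Levels were ordered per length, as CPM per kilobase of each gene's main transcript. Ttn was highest at a mean of 789 (range 460 to 998), followed by Mbnl2 at 120 (102 to 142) and Mbnl1 at 83.4 (58 to 93.8). These 3 did not overlap over the 10 libraries. Rbm20 followed at 44.2 (26.1 to 60.4), and its range met that of Mbnl1. Rbm24 and Celf1 had the same mean of 26.6, Rbfox2 had 22.4 and Celf2 19.1, with ranges that overlapped from each to the next. Rbfox1 was lowest at 11.4 (6.52 to 18.5). This order depends on the transcript whose length is used. Before scaling by length Mbnl1, at 264 to 427 CPM, and Mbnl2, at 294 to 408 CPM, overlapped. The main transcript of Mbnl1 held 0% to 26.3% of the TPM of its gene, and that of Celf1 0% to 48.1%.

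In the authors' deposited table of 13646 genes, the comparison of CKO with Ctrl in the same tissue gave log2 fold changes of -0.02 for Ttn, -0.03 for Rbm20 and -0.68 for Rbfox1, with false discovery rates of 0.995, 0.982 and 0.125. In that comparison 5.5% of the genes were under 0.05 in the authors' deposited table, and 0 of the 9 members were. For CKO against Ctrl in the left atrial appendage, where 34.7% of the genes were under 0.05, the authors' deposited table gives -1.69 for Ttn and -1.88 for Rbfox1, both under that threshold, while the other 7 members missed it. Rbm20 had -0.33 there, with a false discovery rate of 0.143 in the authors' deposited table. In the comparison the authors' deposited table names PVLA, between the tissue around the veins and the appendage, Rbm24 had a log2 fold change of -1.06 and was the only member under 0.05, against 12.2% of the genes. The difference between both tissues in the response of Ttn was not tested here, and the appendage libraries were not analysed here.

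Other genes around titin splicing were read beside the members. Of 18 known RBM20 targets, Ttn among them, 3 passed the edgeR test, against 2.8% of all tested genes. That test reads the total counts of a gene and not its exon use, so it does not measure splicing of these targets. Pdlim3, a Z-disc protein gene, and Mlip, a lamin-interacting muscle protein gene, were higher in CKO, and Sh3kbp1, an adaptor gene, was lower. Pdlim3 was at 104 ± 18 CPM in Ctrl (SD, n = 4) and 207 ± 42.2 CPM in CKO (SD, n = 6; log2 fold change 0.99, SE 0.17, edgeR adjusted p = 0.0124). Mlip and Sh3kbp1 had log2 fold changes of 0.48 and -0.45 (edgeR adjusted p = 0.0341 and 0.0428). The list, chosen with earlier results of these data known, had a median log2 fold change of 0.04. Over 18 alternatives the log2 fold change of Sh3kbp1 stayed between -0.53 and -0.38, but only 4 of them called it and 8 called Mlip. Without Ctrl 3 and CKO 4 Sh3kbp1 missed the threshold (edgeR adjusted p = 0.109). The count of 3 fell to 1 without CKO 1, CKO 2, CKO 5, CKO 6, Ctrl 1 or Ctrl 2, and to 2 without any 1 of the other 4 libraries. Of 51 other splicing regulators 45 were tested and 0 passed, 5 had an unadjusted p under 0.05 and DESeq2 called 0 as well. The most abundant of them, Sf3b1 of the U2 particle, was at 397 ± 36.3 CPM in Ctrl (SD, n = 4) and 428 ± 10 CPM in CKO (SD, n = 6).

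Among 26 genes whose proteins bind titin or lie beside it, 7 were higher and 1 was lower in CKO by the edgeR test, with a median log2 fold change of 0.24, against 1.54% of all tested genes higher and 1.26% lower. The list was chosen with earlier results of these data known, so these shares are no test of it. Myom1, the M-band crosslinker, was at 1293 ± 167 CPM in Ctrl (SD, n = 4) and 2268 ± 311 CPM in CKO (SD, n = 6; log2 fold change 0.81, SE 0.14, edgeR adjusted p = 0.0118). Mybpc3, the cardiac myosin-binding protein C gene, had a log2 fold change of 1.20 (SE 0.22, edgeR adjusted p = 0.0152) and Csrp3, the muscle LIM protein gene, 0.82 (SE 0.15, edgeR adjusted p = 0.0155). The 1 gene that was lower, named after its value was seen, was Neb, the gene of the thin-filament protein nebulin (log2 fold change -0.83, SE 0.17, edgeR adjusted p = 0.0252). 7 of the 26 passed without Ctrl 3 and CKO 4. The count fell to 2 without Ctrl 4, to 3 without Ctrl 1, Ctrl 2 or CKO 1, to 4 without CKO 6 and to 5 without CKO 2. Markers of some other cell types were higher in CKO as well, although 0 of the endothelial and fibroblast markers passed the edgeR test. Adipocyte, Schwann cell and lymphocyte markers had negative median log2 fold changes (-0.77, -0.69 and -1.59), with 0 passing. The 4 endothelial markers summed to 563 to 775 CPM in Ctrl and 793 to 912 CPM in CKO, without overlap. The 6 fibroblast markers summed to 2430 to 4126 CPM in Ctrl and 3852 to 6164 CPM in CKO, with 3 of them at an unadjusted p under 0.05. The 4 macrophage markers summed to 543 to 1218 CPM in Ctrl and 653 to 1399 CPM in CKO, and 1 of them, Cd68, was higher in CKO (log2 fold change 1.152, SE 0.26, edgeR adjusted p = 0.039). The part of these cells in the counts of RBM20 targets and titin partners was not tested.

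The second question was which titin exons the atrial RNA holds. Coverage of each exon, summed over all transcripts that contain it, was set against the same library's median exon of the 347-exon transcript. The 191 exons after exon 1 that the main transcript contains had a median of 1.3, and 190 of them were at 0.5 or more. The 155 exons that the main transcript lacks had a median of 0.0873, and 124 of them were under 0.2. Coverage thus followed the short N2B layout for most exons, but not for all. 26 of the 155 exons were at 0.5 or more, on a scale where exons of the main transcript had a median of 1.3.

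Most of the better covered alternative exons lay together. Exons 48 to 85, the first part of the middle immunoglobulin region, had means of 0.0419 to 0.175. Exons 86 to 110, which follow them and end with the first PEVK-rich exon, had means of 0.226 to 0.793. Within the PEVK part, exons 112 to 114 had means of 0.37 to 0.648, and the 68 exons from 134 to 201 had means of 0 to 0.177. The longest exon before PEVK, exon 46 of 2646 bases (chr2:76907308-76909953), which by its size and place is the N2B exon, was covered at 1.13 to 1.32 times the median exon. ENSMUST00000099980 has 45 exons and ends before the PEVK-rich exons with an exon of 6520 bases (chr2:76913944-76920463). That last exon was covered at 0.121 to 0.153 times the median exon.

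**Figure D2:**
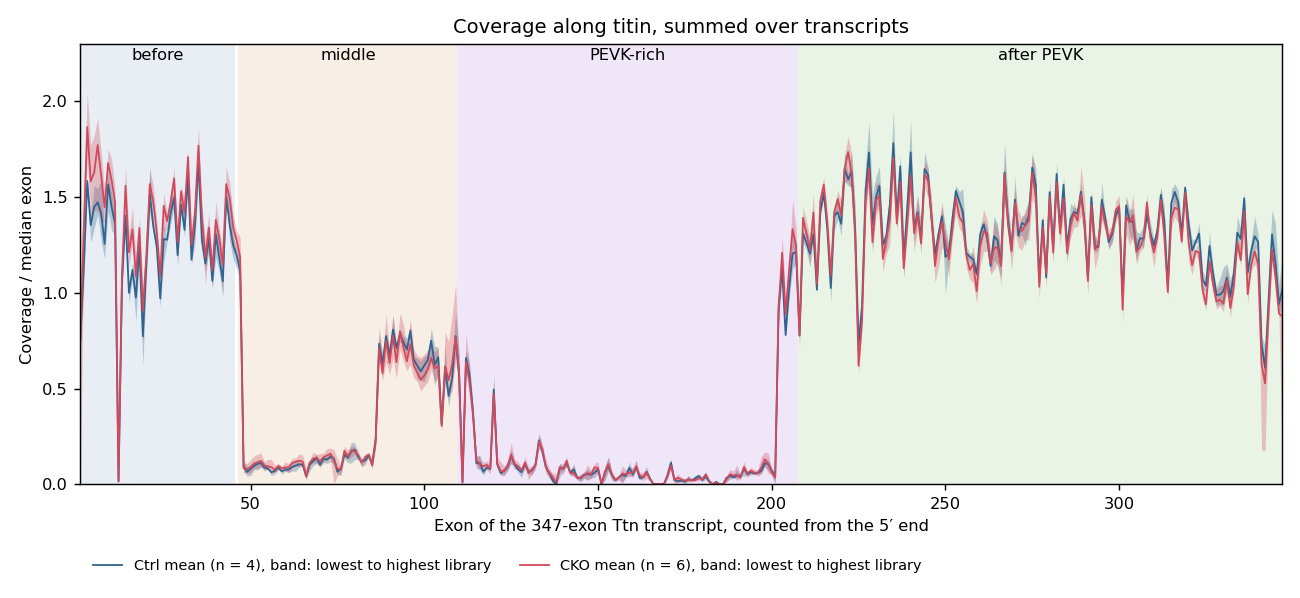
Coverage of each exon of the 347-exon Ttn transcript over its median exon (y axis) against exon number from the 5′ end (x axis), with lines for group means and bands from the lowest to the highest library; coverage is summed over transcripts. Exons 48 to 85 and most PEVK exons lie near 0 in both groups, exons 86 to 110 lie between, and the CKO line is above the Ctrl line over the first exons.

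The deposited transcript values placed Ttn coverage differently in 1 library. ENSMUST00000011934 held 52.5%, 51.4%, 54.6% and 54.2% of the Ttn TPM (transcript level per length and depth) in Ctrl 1 to 4 and 52.4% to 54.9% in CKO 1 to 5, but 4.38% in CKO 6. In CKO 6 ENSMUST00000140091, a transcript of 2159 bases, held 43.4% and ENSMUST00000111846 19%, against at most 0.0986% and 5.24% in the other 9 libraries. Summed over transcripts, the exons of CKO 6 before the longest, without exon 1, were at 1.32 times the median exon against 1.32 to 1.43 in CKO 1 to 5. CKO 6 departed at both ends of the gene: exon 1 of the main transcript was at 0.00299 times that transcript's median exon, against 0.555 to 0.787 in the other 9 libraries, and the last 6 exons were at 0.72 times the median exon of the 347-exon transcript, against 0.91 to 1.147. None of the 3 tested Ttn transcripts passed the test of transcript share (limma on log2 ratios with 0.1 TPM added, adjusted p of 0.941, 0.949 and 0.967). Over the 9 genes, 20 transcripts ranged from under 1% to over 20% of their gene between libraries, 6 of them in Celf1.

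**Figure D3:**
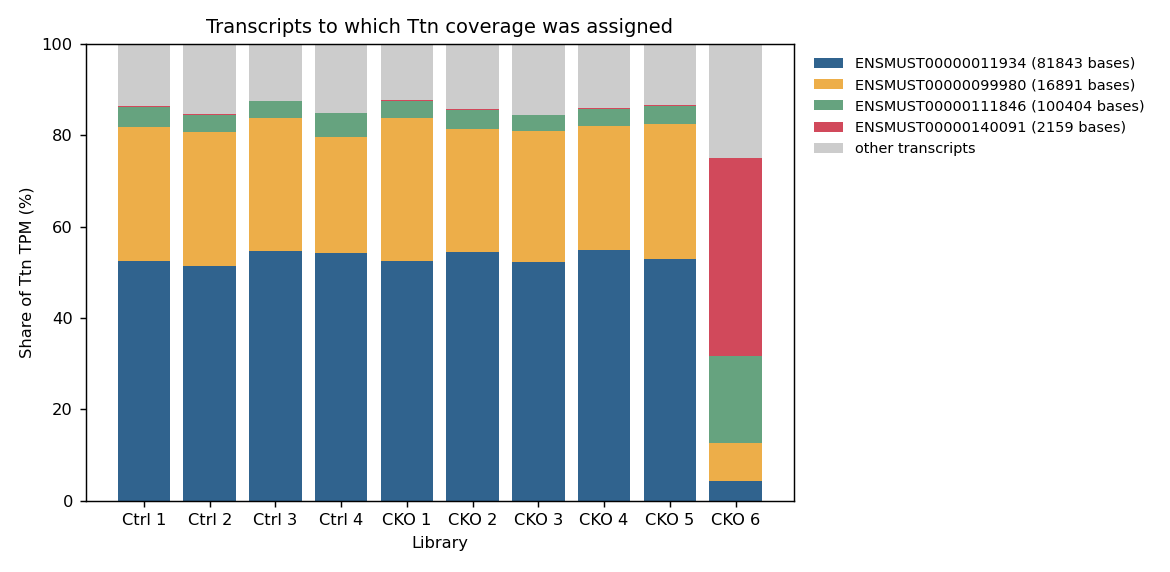
Share of Ttn TPM (y axis, percent) assigned to 4 transcripts and to all others in each library (x axis). 9 libraries share 1 makeup, with ENSMUST00000011934 at 51.4% to 54.9%, and CKO 6 differs from them.

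A further comparison asked whether exon use in the 9 genes differed between CKO and Ctrl. On coverage assigned to the main transcript, 0 of 231 exons of 5 members (192 of them in Ttn) passed the test, limma on log2 ratios to the median exon with 0.5 added, against 0.00845% of 47361 exons of all genes. Of the 231 exons, 8 had an unadjusted p under 0.05, as had 2650 of the 47361. The main transcripts of Rbfox1, Mbnl2, Celf1 and Celf2 did not meet both minima, at least 3 exons and a median-exon coverage of 5. With coverage summed over transcripts, 0 of 258 member exons passed, against 0.0224% of all exons. Along the transcripts with most exons 0 of 430 passed, 347 of them in Ttn, against 0.0127% of all exons.

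The Ttn exons with the smallest p lay before the N2B exon where CKO was higher and after PEVK where it was lower. Exons 43, 14 and 15 of the main transcript, all before the N2B exon, had log2 differences of 0.21, 1.10 and 1.26 (SE 0.08, 0.44 and 0.50; limma adjusted p = 0.859, 0.863 and 0.863). On this assigned coverage exon 14 was at 0.712 times the median exon in CKO 6 and at 0.18 to 0.289 in CKO 1 to 5. It was at 0.0585 in Ctrl 3 and at 0.15 to 0.216 in Ctrl 1, 2 and 4. Summed over transcripts, exons 14 and 15 had log2 differences of 0.27 and 0.24 (SE 0.09 and 0.08). Exons 185, 182 and 70, all after PEVK, had log2 differences of -0.11, -0.13 and -0.20 (SE 0.07, 0.08 and 0.13; limma adjusted p = 0.896, 0.896 and 0.897). Exon 14 (chr2:76954586-76954708) was covered at 0.731 to 0.808 times the median exon in Ctrl and 0.855 to 0.96 times in CKO when summed.

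Regions of Ttn were then compared with the exact permutation test, two-sided and over each of the 210 ways to relabel the libraries, adjusted over 7 regions. The smallest p this design allows is 0.00476. On coverage assigned to the main transcript 0 of the 7 regions passed after adjustment. The exons before the N2B exon were at 0.391, 0.373, 0.385 and 0.463 times the median exon in Ctrl 1 to 4 and at 0.422 to 0.764 (median 0.523) in CKO, a difference of 0.142 (exact p = 0.0333, adjusted p = 0.233). The groups overlapped, and CKO 6 was highest.

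With coverage summed over transcripts the same exons of the main transcript were at 0.974, 0.964, 0.97 and 0.966 times the median exon in Ctrl 1 to 4 and at 1.03 to 1.09 (median 1.04) in CKO. Every CKO library was above every Ctrl library, and the difference of 0.082 passed (exact p = 0.00476, adjusted p = 0.0167). The N2B exon rose from 0.919 ± 0.0394 (SD, n = 4) to 0.973 ± 0.0103 (SD, n = 6; exact p = 0.0143, adjusted p = 0.0333), with groups that overlapped. The exons after PEVK, which encode the last immunoglobulin domains of the I-band and the A-band part, fell from 1.02 ± 0.01 (SD, n = 4) to 0.987 ± 0.00799 (SD, n = 6; exact p = 0.00476, adjusted p = 0.0167). All regions share 1 scale, the median exon, and 134 of the 192 exons lie after PEVK, so the rise at the 5′ end and the fall after PEVK are not independent measurements. Over the exons of the 347-exon transcript the region before the N2B exon was at 1.25 to 1.28 in Ctrl and 1.32 to 1.43 in CKO, also without overlap, but missed the threshold (exact p = 0.00952, adjusted p = 0.0667). The N2B exon was there at 1.13 to 1.24 in Ctrl and 1.22 to 1.32 in CKO (exact p = 0.0238, adjusted p = 0.0833). The exons after PEVK were at 1.3 to 1.34 in Ctrl and 1.25 to 1.33 in CKO (exact p = 0.138, adjusted p = 0.242). Both overlapped between the groups, and 0 of the 7 regions passed on the 347-exon transcript.

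On the 347-exon transcript the alternative spring exons showed no such separation. On the 347-exon transcript the exons between the N2B exon and PEVK were at 0.315, 0.343, 0.322 and 0.329 times the median exon in Ctrl 1 to 4 and at 0.286 to 0.369 (median 0.327) in CKO, a difference of -0.0031 (exact p = 0.852). The 79 PEVK-rich exons were at 0.136 ± 0.00583 in Ctrl (SD, n = 4) and 0.142 ± 0.00638 in CKO (SD, n = 6), a difference of 0.0058 (exact p = 0.186). Groups overlapped in both regions. The last exon of ENSMUST00000099980 was at 0.128 ± 0.0033 in Ctrl (SD, n = 4) and 0.142 ± 0.0124 in CKO (SD, n = 6; exact p = 0.0667, adjusted p = 0.156). The 5 PEVK-rich exons of the main transcript did not overlap on coverage assigned to it. They were at 0.747 to 0.797 in Ctrl and 0.801 to 1.49 in CKO (exact p = 0.152). Summed, they overlapped, at 0.751 to 0.813 and 0.788 to 0.86 (exact p = 0.0381, adjusted p = 0.06). With the median over these exons in place of the mean, the difference of 0.086 passed (exact p = 0.00476, adjusted p = 0.0333).

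Exon by exon, 14 of the 347 exons were higher in every CKO library than in any Ctrl library, of which 11 lay among the 44 exons before the N2B exon, and 7 were lower, all 7 after PEVK. Over the exons of all genes 0.683% were higher and 0.633% lower in this way. Neighbouring exons share reads and are not independent. The largest of the 14 was exon 15, with a log2 difference of 0.28 (SE 0.08, limma adjusted p = 0.739). The ratio of the first 25% to the last 25% of Ttn exons, summed over transcripts, was 1.02 ± 0.022 in Ctrl (SD, n = 4) and 1.16 ± 0.0349 in CKO (SD, n = 6), and its log2 difference of 0.19 missed the threshold over 1820 genes (SE 0.07, limma adjusted p = 0.678). Of those genes 57.3% had a positive difference and 0.11% passed. The part of RNA quality in the 5′ values was not tested.

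**Figure D4:**
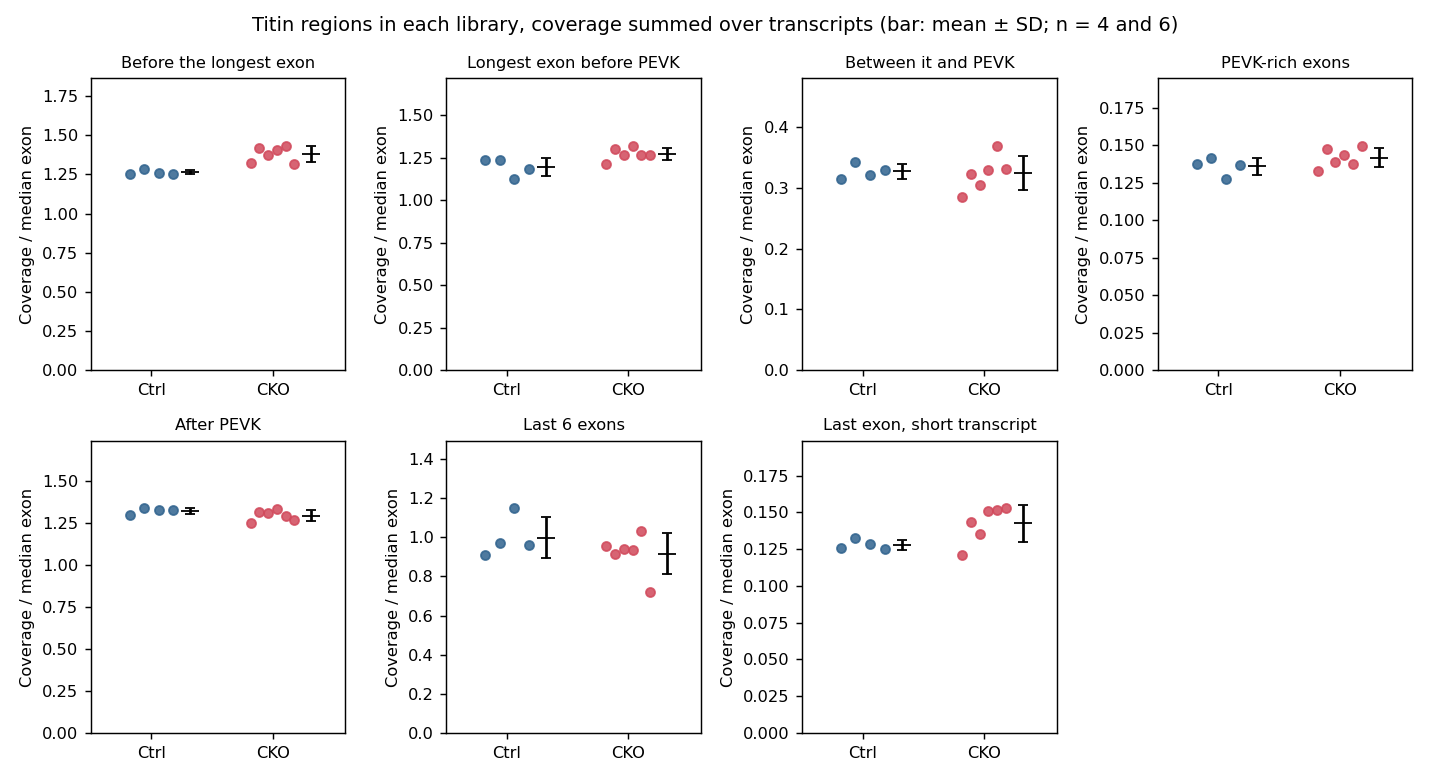
Mean coverage of 7 Ttn regions over the median exon of the 347-exon transcript (linear axes from 0), summed over transcripts, 1 point per library with mean and SD. The groups separate in the panel of exons before the longest exon, at 1.25 to 1.28 against 1.32 to 1.43, and overlap in the other 6.

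1 transcript of the splicing regulators differed in its assigned share between the groups. Of 45 tested transcripts of the 9 genes 1 passed the limma test, against 0.0445% of 38215 transcripts of all genes. It was ENSMUST00000231031 of Rbfox1 (chr16:7352970-7409969, plus strand), a transcript of 558 bases and 5 exons at the 3′ side of the gene. It held 27.2%, 32.4%, 12.5% and 27.4% of the Rbfox1 TPM in Ctrl 1 to 4 and was listed at 0 in all 6 CKO libraries. The log2 ratio of this transcript to the others, with 0.1 TPM added, fell by 5.54 (SE 0.64, limma adjusted p = 0.0181), a size that depends on the value added.

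This call rests on few reads. The transcript had 24, 37.2, 6.05 and 25.1 estimated reads in Ctrl 1 to 4. The call was lost without Ctrl 1, Ctrl 2 or Ctrl 4 (limma adjusted p = 0.0626, 0.0862 and 0.07) and with 1 TPM added in place of 0.1 (adjusted p = 0.103). Its last exon reads 156 bases past the end of the last exon of the 13-exon transcript ENSMUST00000229741, which held 65.9% to 78.8% of the Rbfox1 TPM in Ctrl, 94% to 100% in CKO 1 to 5 and 27.9% in CKO 6. In CKO 6 the 3061-base transcript ENSMUST00000056416 held the other 72.1%.

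Of the alternative cassette exons of Rbfox1, the 43-base exon (chr16:7369801-7369843) had a summed coverage of 3.05, 5.05, 0.814 and 2.14 reads per base in Ctrl 1 to 4 and 0.163 to 2.95 in CKO. The 40-base exon (chr16:7363865-7363904) had 1.38, 0, 3.7 and 5.42 in Ctrl and was listed at 0 in 5 of the 6 CKO libraries, with 0.95 in CKO 2. At this depth single reads move these values, and no test was made of them.

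**Figure D5:**
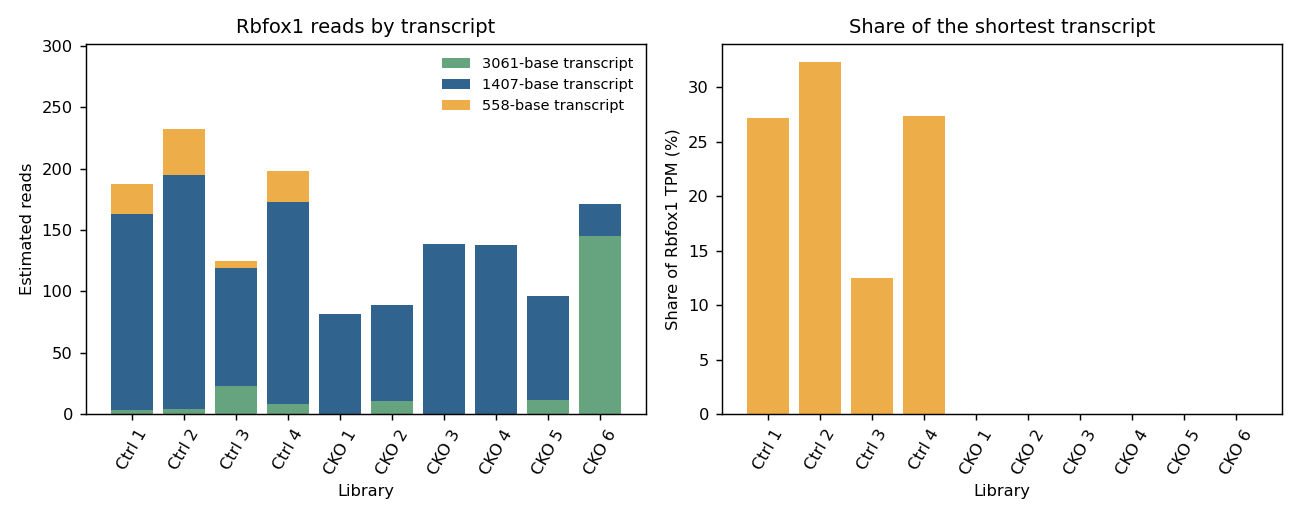
Left, estimated reads of 3 Rbfox1 transcripts in each library; right, share of the 558-base transcript in Rbfox1 TPM (percent). The short transcript is present in the 4 Ctrl libraries at 12.5% to 32.4% and listed at 0 in the 6 CKO libraries, and in CKO 6 most reads were assigned to the 3061-base transcript.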

How the data were processed

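The 9 genes, the gene lists and the tests were chosen with earlier results of these data known. Per the submitters' processing notes reads were aligned with TopHat2 2.1.1 to mm10 and quantified with StringTie 1.3.3, and per the file headers StringTie used the Ensembl 94 annotation of GRCm38 without new transcripts and with a stranded setting, whereas the kit named in the labels does not mark strand. RNA was depleted of ribosomal RNA per the labels' protocols, although another label names polyA RNA. The deposited gene table holds estimated counts, which for all 54532 genes and 10 libraries are coverage times transcript length divided by 50, the read length, each transcript rounded up. The deposited transcript files hold coverage, a signal in mean reads per base, and TPM. The authors' deposited table holds log2 fold changes and p-values with false discovery rates; its model was not given in the sources used here. 10 columns of other samples in the gene table were not used.

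Counts were tested with edgeR 4.0.16 in R 4.3.3 (filterByExpr, TMM, quasi-likelihood F test, adjusted p threshold 0.05; SE: log2 fold change divided by the root of F). Exon ratios (at least 3 exons, mean median-exon coverage of at least 5, 0.5 added) and transcript shares (5% to 95% of a gene with a TPM of at least 1, 0.1 TPM added) were tested with limma 3.58.1 over all genes. Region means were tested by exact permutation. Benjamini-Hochberg adjustment was used throughout, and the fits were tested on simulated data. The labels number replicates but name no litter or batch. Deviations of same-numbered libraries correlated at 0.024, 0.0804, -0.291 and 0.0817, so they were not treated as pairs. DESeq2 1.42.0, limma voom, other scalings, filters and pseudocounts, and leaving out libraries were alternatives. Sums over transcripts along the longest transcript and the ratio of the first to the last 25% of exons were added after the data were seen.

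Named were the 9 members; of each other list up to 3 called genes by adjusted p, or the most abundant gene; the 5 genes nearest to Ttn and to Rbm20, of which 1 is not reported here; and, as no Ttn exon was called, the 3 exons with the smallest p in each direction. CPM uses TMM-scaled library sizes. Depth was 8602794 to 10040808 estimated counts per library, and intervals of counting error were not given since these counts come from coverage.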

Additional observations from a re-analysis of the deposited data

Results flagged for a closer look

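In 59 groups of values of the 9 genes, the Ttn and Rbfox1 transcripts and the Ttn regions, 15 held a library far from the rest of its group, where chance gives about 1 in 20. Shares of 1 gene and regions on 1 scale are not independent, so the 15 cannot be set against that rate. Ttn was at 41952 CPM in Ctrl 3, against 71662 to 72621 in the other 3 Ctrl libraries.

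10 of the 15 were values of CKO 6, in transcript shares or in regions measured on coverage assigned to the main transcript. ENSMUST00000011934 held 4.38% of Ttn TPM there, ENSMUST00000099980 8.33%, ENSMUST00000111846 19% and ENSMUST00000140091 43.4%. For Rbfox1, ENSMUST00000056416 held 72.1% and ENSMUST00000229741 27.9%. Relative to the median exon of the main transcript, the N2B exon of Ttn was at 13.9 in CKO 6 (1.11 to 1.12 in the other 5), the exon between it and PEVK at 12.9, the PEVK-rich exons at 1.49 and the last exon of ENSMUST00000099980 at 1.88. With coverage summed over transcripts on the 347-exon transcript, 0 region values of CKO 6 stood apart in this way, although its last 6 exons were the lowest of the 10 libraries at 0.72.

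The other 4 were smaller departures. ENSMUST00000099980 held 25.5% of Ttn TPM in Ctrl 4 (29.2% to 29.4% in the other 3), and ENSMUST00000056416 held 8.64% of Rbfox1 TPM in Ctrl 3 (0.636% to 1.68%). The PEVK-rich exons were at 0.797 in Ctrl 1 (0.747 to 0.755) and the last 6 exons at 0.942 in Ctrl 3 (0.754 to 0.782).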

How the results depend on the processing

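None of the 9 genes and no Ttn exon passed in any alternative that was run. Counts of genes called (497) became 1132 with DESeq2, 37 with the replicate block and 190 to 607 with 1 library left out; RBM20 targets (3) became 5 with DESeq2, 1 with no filter, 0 with the block and 1 to 2 with 1 left out, and titin partners (8) became 0 with the block and 2 to 9. Exons called (4) became 14 summed over transcripts, 8 on the longest transcripts, 2 at a coverage minimum of 20, 0 with a pseudocount of 0.1 or the block, 1 without Ctrl 3 and CKO 4, and 0 to 5 with 1 left out. Transcripts called (17) became 54 without Ctrl 3 and CKO 4, 6 at a TPM minimum of 10, 0 with the block and 16 to 48 with 1 left out; of the members' 1, 0 remained with a pseudocount of 1 or the block, and 0 to 1 with 1 left out.

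Some log2 differences changed sign, none past the threshold. Ttn was at 0.012 with DESeq2 or relative log expression factors, 0.111 with the replicate block, 0.0448 with no filter and -0.152 to 0.114 with 1 library left out. With the block Rbm20 was at 0.0903 and Rbfox2 at 0.0237, and with no filter Rbm20 was at 0.0318, Rbm24 at 0.0258, Rbfox2 at 0.0244 and Mbnl2 at 0.0017. Celf2 was at -0.0298 by library size only. With 1 left out the ranges were -0.158 to 0.098 for Rbm20, -0.195 to 0.167 for Rbm24, -0.12 to 0.0843 for Rbfox2, -0.11 to 0.0369 for Mbnl2 and -0.00945 to 0.11 for Celf2. Transcript log2 differences of -0.758 (ENSMUST00000011934), -0.334 (ENSMUST00000099980), 0.289 (ENSMUST00000111846) and 0.854 (ENSMUST00000056416) became 0.0229, 0.0101, -0.154 and -0.915 with the block, and the last of them -0.601 with a pseudocount of 0.01. With 1 left out they were, in that order, -0.93 to 0.0162, -0.44 to 0.0234, -0.134 to 0.40 and -0.367 to 1.62.

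Region differences passed when summed over transcripts before the N2B exon (0.082), at it (0.0535) and after PEVK (-0.029), and with the median over PEVK-rich exons (0.086). Signs changed, none past the threshold, for the exons after PEVK (0.00782 by median, -0.00619 to 0.00337 with 1 left out), for those between the N2B exon and PEVK (-0.00305 on the longest transcript), and for the last 6 exons (-0.0674 summed, -0.00854 by median, -0.0408 with the block, -0.0812 on the longest transcript, -0.0229 to 0.0585 with 1 left out). The causes were not tested. On coverage assigned to the main transcript, exons of Rbfox1, Mbnl2, Celf1 and Celf2 were not tested, since they did not meet the minima on exon number and coverage.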
